A study of Mus musculus with 2 samples.

Results

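The mu-class glutathione transferase cluster of the mouse comprises 7 genes, Gstm1 to Gstm7, side by side on chromosome 3, and was examined here in DNase-seq data of kidney. Its members were taken by name from the GENCODE M21 annotation, 7 of 21938 protein-coding genes, together with the sequence from the first to the last gene and 20 kb on each side. This span runs over chr3:107875821-108064894 of mm10, 189.1 kb in all, of which 149.1 kb lie between the outer ends of Gstm5 and Gstm4. It held 26 of the 124504 peaks of replicate 1 and 15 of the 68056 peaks of replicate 2. The members were chosen by name and position with peak heights, footprints and false discovery rates of these libraries in view, so all values are given as a description, with no test.

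Kidney tissue came from female B6CASTF1/J mice, 36 days old, the offspring of a cross between C57BL/6J, a common inbred strain, and CAST/EiJ, an inbred strain from wild mice. There was 1 group of 2 libraries, named as biological replicates 1 and 2, with no treatment and no control. The females carry separate numbers, but the labels give the same donor entry for both, so that the spread between the libraries may not be that between unrelated animals. In DNase-seq, DNase I cuts nuclear DNA where nucleosomes leave it open and the cut ends are sequenced. An open stretch appears as a peak, and a short stretch inside it that is protected from cutting by a bound protein appears as a footprint. In whole tissue, a higher peak can mean more cells with open DNA or more open DNA per cell, and these cannot be told apart. Of 11 markers of kidney tubule cells, 10 had a promoter peak in both libraries, whereas Slc22a6, an organic anion transporter of the proximal tubule, had one of 1.85 in replicate 1 alone. Of 4 markers of liver and adrenal cortex, Alb, Ttr and Cyp11b1 had none and Star had one of 1.71 in replicate 1 and 1.79 in replicate 2.

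Glutathione transferases join the tripeptide glutathione to reactive electrophiles, among them oxidised lipids, drugs and their metabolites, so that these can be exported from the cell and excreted. The mu class is one of the cytosolic classes, and its genes arose by tandem duplication. Kidney tubule cells also take part in the last steps, in which glutathione conjugates are trimmed and acetylated to mercapturic acids. Several glutathione transferase genes are targets of NRF2, the transcription factor that is held back by KEAP1 until electrophiles or oxidants reach the cell and that binds the antioxidant response element together with small MAF proteins.

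The sequences under the promoter peaks of 6 members are shown first, because the accessible and protected bases are what the results turn on. For Gstm3, which had no promoter peak in the stricter of the 2 deposited peak sets, the sequence is that of a peak of the wider set in replicate 1. Each is read 5′ to 3′ on the strand of its gene from the mm10 assembly (GRCm38.p6), and each stops 30 bases into the transcript. Capitals mark bases that lay inside footprints of both libraries.

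Gstm7 promoter, chr3:107931788-107931920, minus strand: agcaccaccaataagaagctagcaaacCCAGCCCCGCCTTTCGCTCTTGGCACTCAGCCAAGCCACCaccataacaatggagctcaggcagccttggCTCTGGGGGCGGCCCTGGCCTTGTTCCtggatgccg
Gstm1 promoter, chr3:108017944-108018120, minus strand: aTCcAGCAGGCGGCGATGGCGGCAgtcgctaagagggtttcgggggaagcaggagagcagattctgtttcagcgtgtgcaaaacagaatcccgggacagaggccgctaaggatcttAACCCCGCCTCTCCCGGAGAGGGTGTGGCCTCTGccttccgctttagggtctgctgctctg
Gstm4 promoter, chr3:108044865-108045040, minus strand: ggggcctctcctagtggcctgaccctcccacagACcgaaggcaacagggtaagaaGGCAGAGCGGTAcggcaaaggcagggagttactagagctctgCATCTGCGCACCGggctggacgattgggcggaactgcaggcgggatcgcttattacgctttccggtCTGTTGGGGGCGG
Gstm5 promoter, chr3:107895701-107895850, plus strand: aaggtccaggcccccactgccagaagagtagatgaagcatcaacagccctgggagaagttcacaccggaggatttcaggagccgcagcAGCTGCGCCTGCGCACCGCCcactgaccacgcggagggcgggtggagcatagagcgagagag
Gstm2 promoter, chr3:107986424-107986580, minus strand: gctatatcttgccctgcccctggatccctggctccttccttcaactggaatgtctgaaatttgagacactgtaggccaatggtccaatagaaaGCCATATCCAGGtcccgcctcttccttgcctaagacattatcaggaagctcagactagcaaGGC
Gstm6 promoter, chr3:107943720-107943940, minus strand: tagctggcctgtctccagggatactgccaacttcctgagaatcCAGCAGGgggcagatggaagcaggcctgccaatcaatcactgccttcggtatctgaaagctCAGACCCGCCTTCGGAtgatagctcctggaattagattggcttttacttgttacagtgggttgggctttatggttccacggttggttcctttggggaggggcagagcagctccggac
Gstm3 start, wider set of replicate 1, chr3:107969254-107969360, minus strand: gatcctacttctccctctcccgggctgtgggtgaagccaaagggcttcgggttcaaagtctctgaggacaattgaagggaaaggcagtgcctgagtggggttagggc

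Along the chromosome the order is Gstm5, Gstm7, Gstm6, Gstm3, Gstm2, Gstm1 and Gstm4. Gstm5 is read from the plus strand and the other 6 from the minus strand. The promoter peaks of 6 members were present in both libraries, and Gstm3 had none. A promoter peak was a peak of the stricter set that overlapped the 1 kb on either side of any annotated transcript start. Such a peak was present in both libraries at 6 of 7 members, or 85.7%, against 60.7% of all protein-coding genes. Of all protein-coding genes 32.9% had one in neither library, as Gstm3 did, and 6.19% had one in replicate 1 alone. A share of 7 genes moves in large steps, and the members were chosen with these values known, so nothing is read from the difference.

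**Figure D1:**
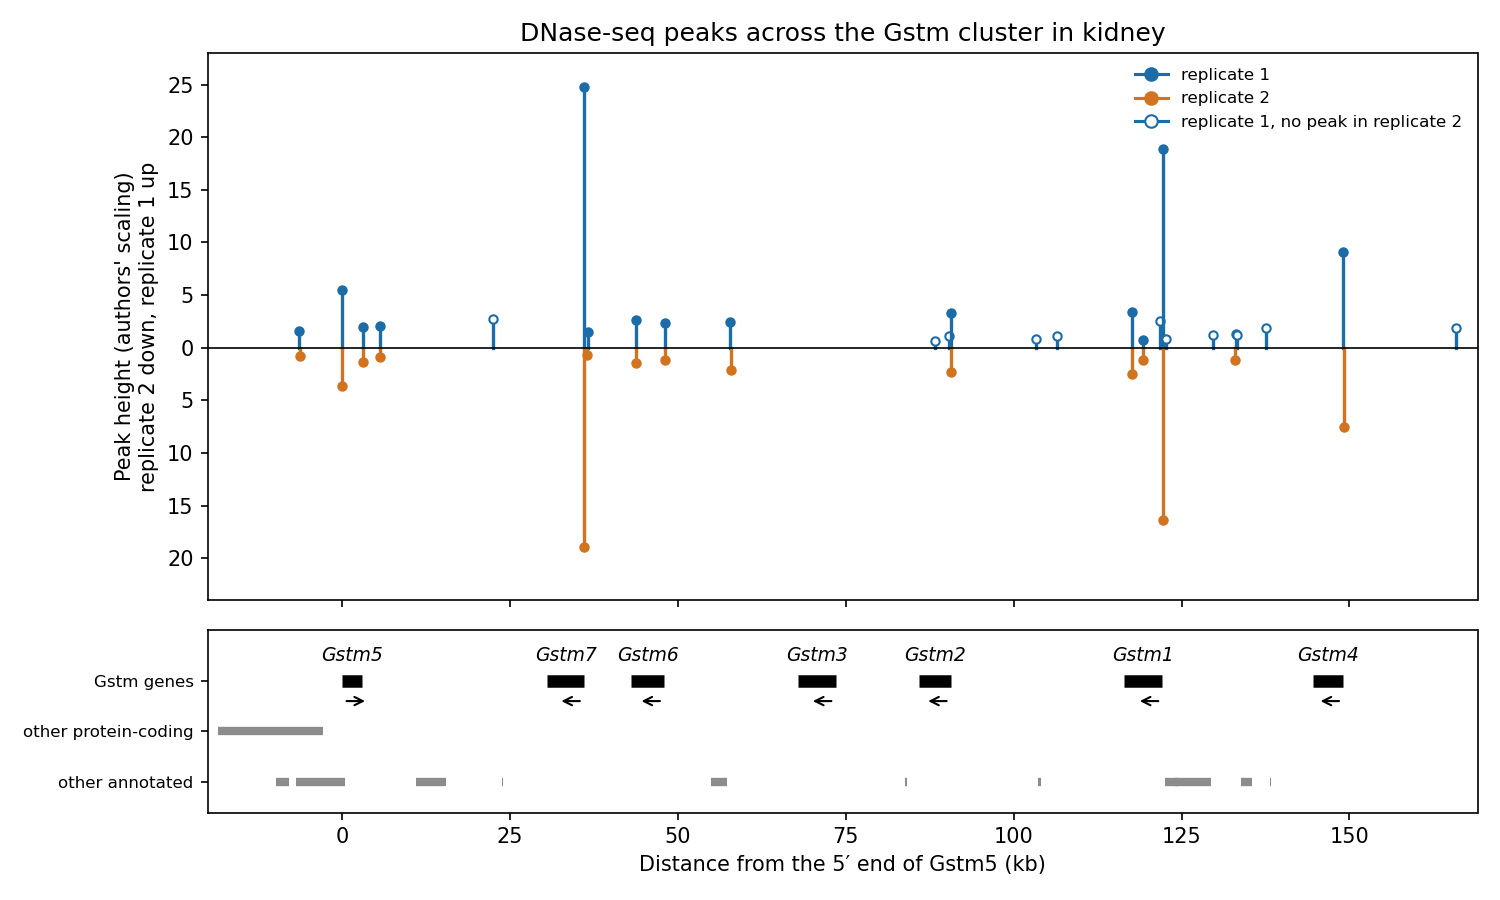
Peak heights (vertical axis, authors' scaling; replicate 1 upward, replicate 2 downward) against the distance from the 5′ end of Gstm5 in kb, with open circles for peaks of replicate 1 that have no counterpart in replicate 2; below, the annotated genes, with arrows for the direction of the Gstm genes. The peaks at the 5′ ends of Gstm7 (24.8 in replicate 1, 18.9 in replicate 2) and Gstm1 (18.9 in replicate 1, 16.4 in replicate 2) stand far above the rest, and none lies in or around Gstm3.

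Gstm7 had the highest promoter peak of the family. Its peak at chr3:107931741-107931920 covered the 5′ end of the gene (ENSMUSG00000004035.12, chr3:107926334-107931817) and had a height of 24.8 in replicate 1 and 18.9 in replicate 2. Heights are the authors' values on a scale that is not given in the sources used here. In each library they were whole multiples of 1 step, and the Gstm7 peak held 2675 steps in replicate 1 and 1855 in replicate 2. It had rank 508 of 124504 peaks in replicate 1 and rank 788 of 68056 in replicate 2, and was above the strongest promoter peak of 95.8% and 93.5% of the 13314 genes that had one in both libraries. The lowest false discovery rate within 1 kb of the start was listed at 0 in replicate 1 and at 3.54e-273 in replicate 2, and 999 bases in replicate 1 and 779 in replicate 2 were at a rate of 0.001 or less. Near its start lay 12 footprints in replicate 1, the most of any member, and 7 in replicate 2, as many as at Gstm1. Of these, 5 of replicate 1 were matched, that is, overlapped one of replicate 2 over at least 50% of the shorter. A second, lower peak lay 444 bases upstream in replicate 1 (chr3:107932261-107932420), with a height of 1.48 in replicate 1 and 0.652 in replicate 2.

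Gstm1, which codes for the main mu-class enzyme of mouse liver, had the next highest peak. At chr3:108017861-108018120, over the 5′ end of the gene (ENSMUSG00000058135.12, chr3:108012255-108017973), the height was 18.9 in replicate 1 and 16.4 in replicate 2, rank 1481 and rank 1172. The Gstm7 peak was 1.31 times as high as the Gstm1 peak in replicate 1 and 1.15 times in replicate 2. Gstm1 had the broadest open promoter, with 1195 bases in replicate 1 and 798 in replicate 2 at a false discovery rate of 0.001 or less within 1 kb of the start. The lowest rate there was 9.94e-184 in replicate 1 and 1.72e-75 in replicate 2. A total of 4 matched footprints of replicate 1 lay between positions -194 and 77 relative to the 5′ end, and 82 bases of the peak were inside footprints of both libraries, more than in any other shared peak of the span whose sequence was read.

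Gstm4 followed. Its peak at chr3:108044781-108045040 (gene ENSMUSG00000027890.17, chr3:108040408-108044894) had a height of 9.08 in replicate 1 and 7.57 in replicate 2, rank 6888 and rank 5194, near the middle of all genes with a promoter peak in both libraries, whose median was 8.26 in replicate 1 and 5.37 in replicate 2. Within 1 kb of the start lay 9 footprints in replicate 1 and 6 in replicate 2, of which 4 of replicate 1 were matched. In replicate 2 the called peak was narrower, from 108044921 to 108045040.

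Gstm5, Gstm2 and Gstm6 had the lowest promoter peaks among the members that had one. Gstm5 (ENSMUSG00000004032.10, chr3:107895821-107898686), an enzyme best known from brain and testis, had 5.5 in replicate 1 and 3.62 in replicate 2. Its start lies among the starts of the antisense gene 4933431E20Rik, so the peak at chr3:107895721-107895920 in replicate 1 belongs as much to that gene. Gstm2 (ENSMUSG00000040562.12, chr3:107981702-107986453) had 3.32 in replicate 1 and 2.28 in replicate 2. Gstm6 (ENSMUSG00000068762.11, chr3:107938847-107943749) had 2.38 in replicate 1 and 1.13 in replicate 2, above the strongest promoter peak of 11.9% of genes with one in both libraries in replicate 1 and of 8.65% in replicate 2. The order of the 6 members by height was the same in both libraries. From the highest to the lowest, heights spanned 10.4-fold in replicate 1 and 16.7-fold in replicate 2. The lowest ratio of replicate 2 over replicate 1 for a single member was 0.476, for Gstm6. The range from the highest to the lowest member was thus wider than the change of any member between the libraries. Members next to each other in the order could be closer. The Gstm7 peak was 1.31 times as high as that of Gstm1 in replicate 1, and its ratio between the libraries was 0.761. With RefSeq starts, which give Gstm6 a further promoter peak upstream, heights spanned 9.96-fold in replicate 1 and 8.79-fold in replicate 2, and the ratio of Gstm6 was 0.863.

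**Figure D2:**
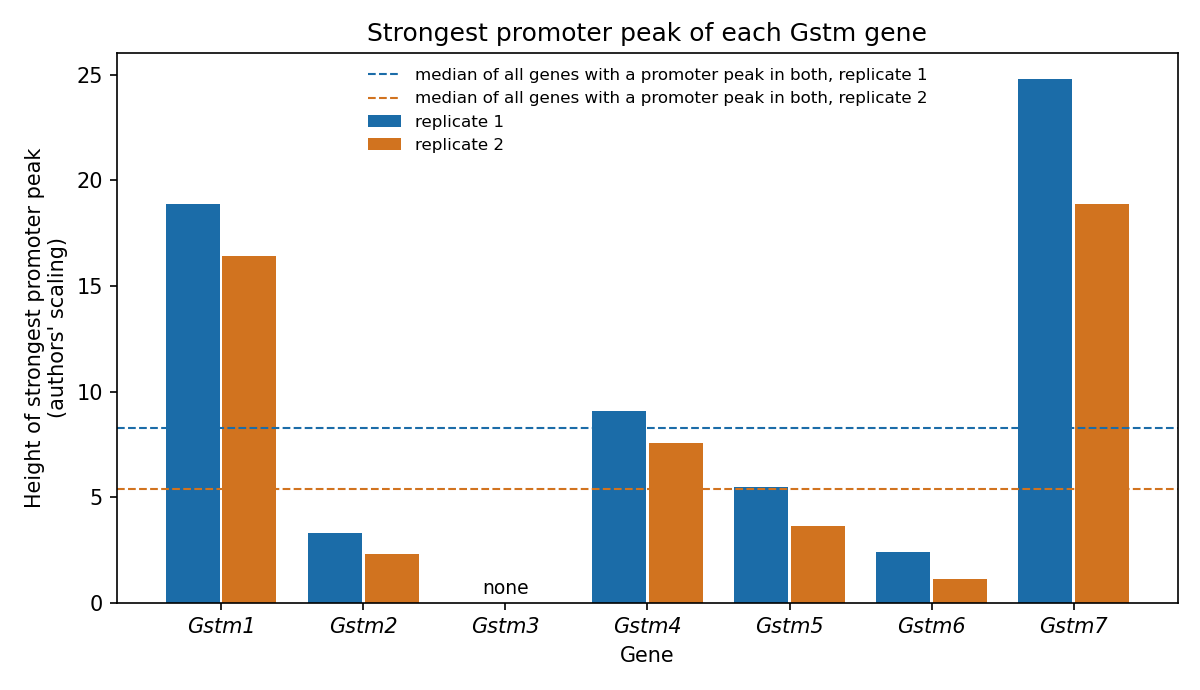
Height of the strongest promoter peak (vertical axis, authors' scaling) of each Gstm gene in replicate 1 and replicate 2, with dashed lines at the median of the 13314 genes with a promoter peak in both libraries. Gstm7, Gstm1 and Gstm4 lie above the median of their library, Gstm5, Gstm2 and Gstm6 below it, and Gstm3 has no bar.

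Gstm3 was the exception. No peak of the stricter set lay in the gene (ENSMUSG00000004038.9, chr3:107963696-107969283), within 1 kb of its start or in the 12.4 kb between it and Gstm2, and no base of the gene or of that interval was at a false discovery rate of 0.001 or less in either library. The wider peak set held a peak of 0.492 over its start in replicate 1 alone, as 5.71% of protein-coding genes had in that set, at chr3:107969147-107969360, where the false discovery rate reached 0.00152. Within 1 kb of the start, 217 bases were at 0.05 or less in replicate 1 and none were in replicate 2, and 1 footprint was listed in replicate 1 and none in replicate 2. Replicate 2 had fewer peaks throughout the genome, and whether the animals differed at Gstm3 was not tested. Reads from repeated sequence may not be placed, depending on their length, and the length of 36 bases was chosen here. Of the 36-base words within 150 bp of the Gstm3 start, 94.4% occurred once in the assembly, against 100% at the starts of the other 6 members. Within 1 kb of the start it was 98% at Gstm3, and from 91.5% (Gstm2) to 99.2% (Gstm4) at the other 6. Whether repeated sequence bears on the missing peak was not tested.

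**Figure D3:**
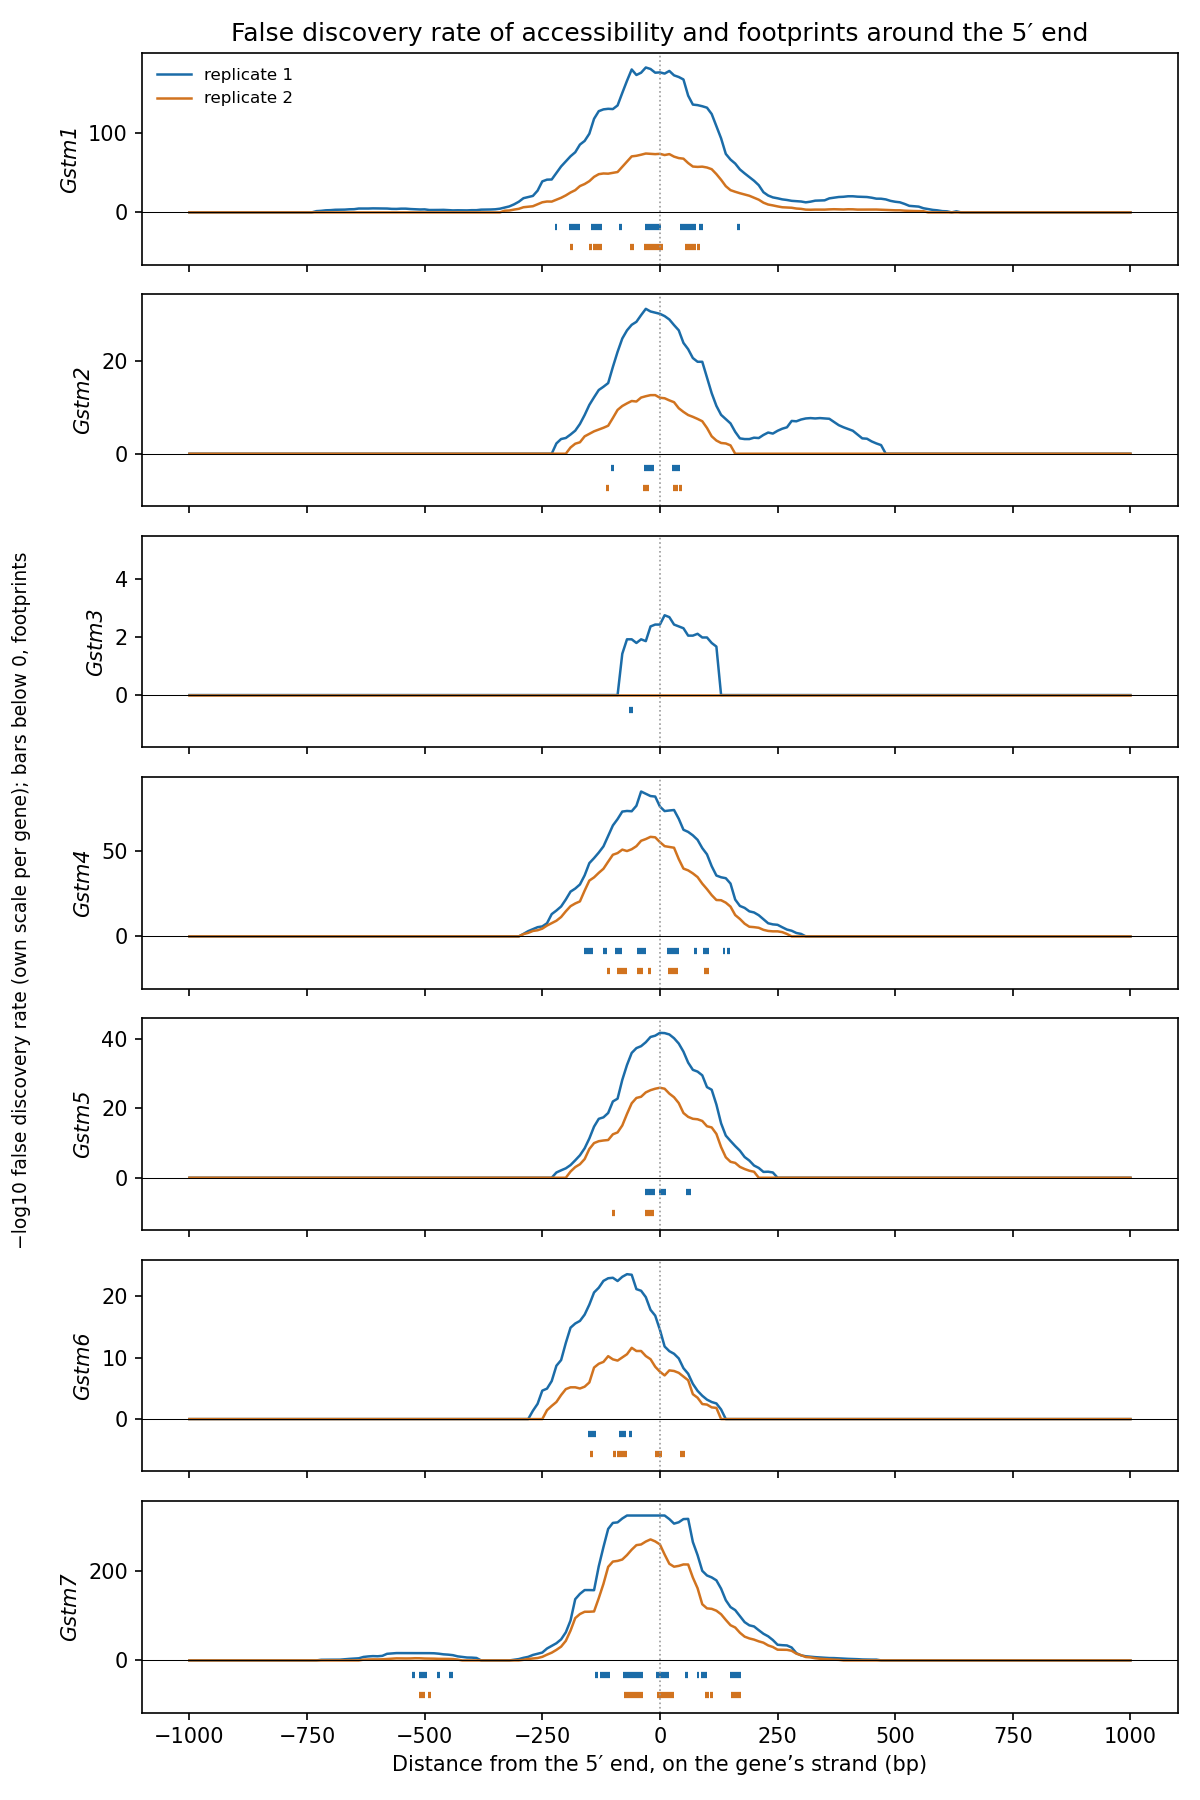
The −log10 of the false discovery rate (vertical axis, own scale for each gene) against the distance in bp from the 5′ end on the gene's strand, for replicate 1 and replicate 2; bars below 0 are footprints, and positions not listed in the deposited file are drawn at 0. The flat top of Gstm7 in replicate 1 holds positions listed at a rate of 0. The other 6 genes show an open stretch around the 5′ end in both libraries, whereas Gstm3 shows a weak one in replicate 1 alone.

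The promoters of the members were not rich in CpG. As background, promoters rich in CpG are open in most tissues, and in these libraries the share of genes with a promoter peak in both libraries ran from 8.98% in the lowest of 10 equal groups by CpG ratio to 94% in the highest. The CpG ratio, observed over expected within 500 bp of the 5′ end, was 0.171 for Gstm2, 0.236 for Gstm3, 0.277 for Gstm6, 0.321 for Gstm7, 0.444 for Gstm4, 0.55 for Gstm5 and 0.551 for Gstm1, and no member was above the median of all genes, 0.552. Gstm7 and Gstm6 fell in the same CpG group, in which 42.6% of genes had a promoter peak in both libraries, although the Gstm7 peak was the highest and the Gstm6 peak the lowest of the 6. Gstm2 had a peak in a group where 18.8% of genes had one, and Gstm3 had none in a group where 29.3% had one.

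The rest of the span was examined peak by peak. Of the 26 peaks of replicate 1, 15 overlapped a peak of replicate 2, or 57.7%, against 52.7% of all peaks of the genome. All 15 peaks of replicate 2 overlapped one of replicate 1, against 96.3% in the genome. Of these 15 shared peaks, 8 lay within 1 kb of an annotated start of a member, with a median height of 4.43 in replicate 1 and 3.06 in replicate 2, and the other 7 had a median of 1.98 in replicate 1 and 1.17 in replicate 2. Density was 13.8 peaks per 100 kb in the span and 4.57 in the genome in replicate 1, and 7.93 in the span and 2.5 in the genome in replicate 2. In replicate 1, 4.72% of the bases of the span and 1.32% of those of the genome were at a false discovery rate of 0.001 or less, and in replicate 2 it was 2.7% of the span and 0.713% of the genome. The median peak height was 1.92 in the span and 1.33 in the genome in replicate 1, and 1.46 in both in replicate 2.

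By the middle of the peak, 9 shared peaks fell between genes, 3 in gene bodies and 3 in the flanks. Those between genes include the promoter peaks of Gstm7, Gstm6, Gstm2 and Gstm1 and the second, lower peak of Gstm7. Those in the flanks include the promoter peaks of Gstm5 and Gstm4. Gstm1 had the most open gene body, with 19.9% of its bases in replicate 1 and 17.6% in replicate 2 at a false discovery rate of 0.001 or less. These shares count every base from the 5′ end, and so include the part of the open promoter that lies inside the gene. Intron 7 of its longest protein-coding transcript held a peak at chr3:108013301-108013520 with a height of 3.36 in replicate 1 and 2.49 in replicate 2, the highest of the shared peaks away from the first exons. The start of a short non-coding transcript of Gstm1, at 108013316, lies in it. A low peak in intron 5 (chr3:108015041-108015180 in replicate 1) had 0.705 in replicate 1 and 1.17 in replicate 2 and was the only shared peak of the span with a higher value in replicate 2. Its middle lies in an exon of another Gstm1 transcript, and it held no matched footprint. In replicate 2 it ran from 108014981 to 108015191. There 84.1% of its 36-base words occurred once in the assembly, against 99% in replicate 1.

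Intron 7 of Gstm6 held a shared peak at chr3:107939501-107939680 in replicate 1, with a height of 2.63 in replicate 1 and 1.46 in replicate 2, above the promoter peak of the gene, at 2.38 in replicate 1 and 1.13 in replicate 2. The widest set of footprinted bases outside the promoters lay here, with 44 bases in footprints of both libraries. Both intronic peaks are shown because each holds an antioxidant response element, described further on.

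Gstm6 intron 7, chr3:107939461-107939680, minus strand: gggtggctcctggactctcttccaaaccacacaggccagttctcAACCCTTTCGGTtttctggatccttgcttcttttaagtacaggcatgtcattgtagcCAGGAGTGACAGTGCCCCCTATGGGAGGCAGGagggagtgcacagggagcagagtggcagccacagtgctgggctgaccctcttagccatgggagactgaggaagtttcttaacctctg
Gstm1 intron 7, chr3:108013301-108013520, minus strand: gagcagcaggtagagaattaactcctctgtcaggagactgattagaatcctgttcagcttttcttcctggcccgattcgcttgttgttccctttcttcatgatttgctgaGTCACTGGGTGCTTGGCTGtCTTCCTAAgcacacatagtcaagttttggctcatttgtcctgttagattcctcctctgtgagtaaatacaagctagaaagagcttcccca

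A further shared peak lay 9.79 kb upstream of the annotated Gstm6 start, between Gstm6 and Gstm3 (chr3:107953541-107953620 in replicate 1, to 107953780 in replicate 2), with a height of 2.49 in replicate 1 and 2.15 in replicate 2. GENCODE places no Gstm6 start there. RefSeq has Gstm6 transcripts that begin at 107953466, 75 bases downstream of the near edge of the peak, and predicted ones that begin at 107953641. With RefSeq starts the peak is thus a promoter peak of longer Gstm6 transcripts. Its height was above that of the promoter at the GENCODE start of Gstm6, which had 2.38 in replicate 1 and 1.13 in replicate 2. Its sequence over the wider extent of replicate 2 was also the closest to a member's promoter. Over 133 aligned columns, 97 bases, or 72.9%, were the same as in the Gstm6 promoter peak, with an alignment score of 94, whereas the next of the 91 pairs of peaks compared scored 30 and the median was 19. All 36-base words of both peaks occurred once in the assembly. The nearest GENCODE start is that of the pseudogene Gm12494, on the minus strand at 107953121, 420 bases downstream of the near edge of the peak. By the 1 kb rule the peak is therefore also a promoter peak of Gm12494. The stretch chr3:107953612-107953780 stops 30 bases into the predicted transcripts that begin at 107953641. Nearly all of it lay in the peak of replicate 2 alone, since that of replicate 1 ended at 107953620. Its 8 capitals lay outside the replicate 1 peak. The matched footprint of the replicate 1 peak, at 107953548-107953554, is not in this stretch.

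Upstream Gstm6 peak, chr3:107953612-107953780, minus strand: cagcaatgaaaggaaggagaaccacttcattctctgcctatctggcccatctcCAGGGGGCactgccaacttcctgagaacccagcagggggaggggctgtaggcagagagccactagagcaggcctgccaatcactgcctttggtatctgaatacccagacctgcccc

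The remaining shared peaks were low. On the Gstm5 side of Gstm7 lay chr3:107898721-107899100 with 1.98 in replicate 1 and 1.38 in replicate 2, just past the 3′ end of Gstm5, and chr3:107901321-107901580 with 2.02 in replicate 1 and 0.896 in replicate 2. Between Gstm1 and Gstm4, chr3:108028701-108029220 had 1.35 in replicate 1 and 1.14 in replicate 2, near the pseudogene Gm12499. In the flank before Gstm5, chr3:107889321-107889520, in an intron of Eps8l3 and an exon of 4933431E20Rik, had 1.63 in replicate 1 and 0.815 in replicate 2. The other annotated genes with a start in the span are Gm43745, Gm9515, Gm12489, Gm12497, Gm43746, Gm12498, Gm12502 and Gm25592, of which Gm12498, a long non-coding RNA upstream of Gstm1, had a peak of 0.826 in an exon in replicate 1 alone. A further peak, of 1.17 in replicate 1, lay 112 bases upstream of the Gm12498 start, where the wider set of replicate 2 had one of 0.846. Where the span ends, the next peak outside it before Gstm5 had 3.79 in replicate 1 and 2.66 in replicate 2, 1981 bases beyond the border. On the other side the next peak outside had 3.79 in replicate 1 and 2.14 in replicate 2.

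There were 11 peaks called in replicate 1 alone, with heights from 0.612 to 2.71 and a median of 1.17, and 6 of them overlapped a peak of the wider set of replicate 2. The highest was chr3:107918141-107918300, between Gstm5 and Gstm7, with 2.71. A peak of 2.58 in intron 1 of Gstm1 (chr3:108017461-108017660) and one of 1.07 in intron 1 of Gstm2 (chr3:107986041-107986220) lay just downstream of the promoter peaks. The others were 0.612 in exon 7 of Gstm2, 0.863 and 1.1 between Gstm2 and Gstm1, 0.826, 1.17, 1.21 and 1.87 between Gstm1 and Gstm4, and 1.85 in the flank after Gstm4. The peak of 1.21 (chr3:108028981-108029220) lies wholly inside the shared peak at chr3:108028701-108029220 and is a second entry over the same bases. Repeated sequence was most common between Gstm2 and Gstm1, where 67% of 36-base words occurred once, against 89.2% in the whole span, and reads from the other words may not be placed.

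Heights were lower in replicate 2 at 14 of the 15 shared peaks. The median log2 ratio of replicate 2 over replicate 1 was -0.52 with an SD of 0.50 over the 15 peaks, against -0.60 over the 65636 shared peaks of the genome, of which 92.2% were lower in replicate 2. Among promoter peaks, the ratio was 0.868 for Gstm1, 0.833 for Gstm4, 0.761 for Gstm7, 0.687 for Gstm2, 0.657 for Gstm5 and 0.476 for Gstm6. The scale of the heights is unknown, so no direction between the libraries is drawn from these values. Division of each library by the median of all its shared peaks adds the same amount to every log2 ratio and by construction gave a median of 0.21 for the cluster.

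**Figure D4:**
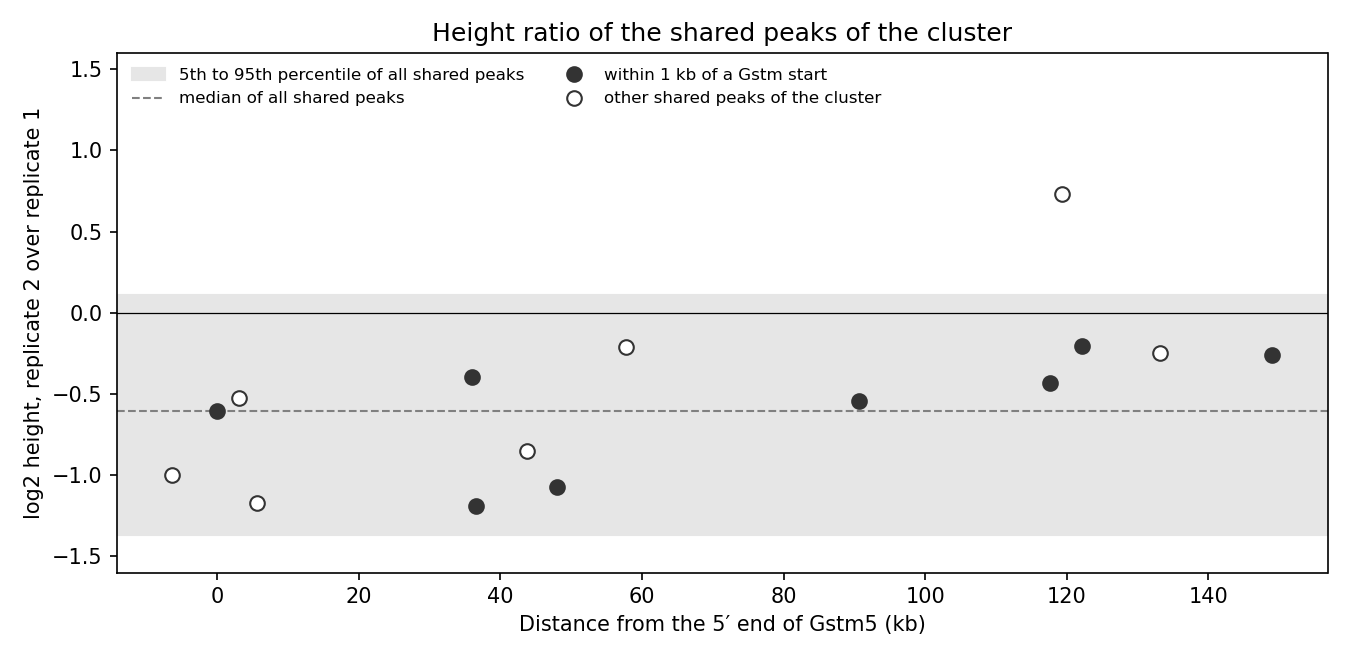
The log2 height ratio of replicate 2 over replicate 1 (vertical axis) for the 15 shared peaks of the cluster, against the distance from the 5′ end of Gstm5 in kb; filled circles lie within 1 kb of a Gstm start. The dashed line is the median of all shared peaks, -0.60, and the grey band spans their 5th to 95th percentiles, -1.37 to 0.11; 14 of the 15 peaks lie in the band and the low peak in intron 5 of Gstm1 lies above it at 0.73.

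Footprints numbered 94 in replicate 1 and 64 in replicate 2 over the span, of which 33 of replicate 1, or 35.1%, were matched, against 33.8% of all footprints of replicate 1. Not all lay in peaks: 72 in replicate 1 and 39 in replicate 2 overlapped a peak of the stricter set of the same library. At least 1 matched footprint lay in 14 of the 15 shared peaks, or 93.3%, against 77.2% of all shared peaks. At Gstm7, a footprint from position -78 to -37 relative to the 5′ end in replicate 1 and from -76 to -37 in replicate 2 covered a full NFI palindrome, the site of nuclear factor I dimers, at chr3:107931860-107931874. All 15 bases of this match were inside footprints of both libraries. The palindrome occurred in 1 of the 15 shared peaks of the span and in 0.128% of all 65636 shared peaks, and in 0.0365% of 32851 RefSeq promoters of 300 bases. A match is a description of the letters and does not show which protein was bound.

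Both Gstm7 and Gstm4 had a GC box, GGGCGG, the site of SP-family factors, wholly inside footprints of both libraries, at the 5′ end itself in Gstm7 and 24 bases downstream of it in Gstm4. These places are relative to the GENCODE 5′ end. RefSeq also has Gstm4 starts at 108044859 and 108044856, and the Gstm4 box lies upstream of both. GC boxes were found in 4 of 7 member promoters and in 35.7% of all RefSeq promoters. Gstm1 had a pair of CCAAT boxes, the site of NF-Y, read from the opposite strand 58 and 64 bases downstream of its GENCODE 5′ end, and both were wholly inside footprints of both libraries. RefSeq also has a Gstm1 transcript that begins at 108017818, and the pair lies upstream of that start. The CCAAT boxes of Gstm2, Gstm6 and Gstm7 had no base in a footprint of either library. CCAAT occurred in 5 of 7 member promoters and in 37.4% of all.

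The Gstm1 and Gstm6 promoters shared a CTCF-core match at nearly the same place, beginning at position -145 relative to the Gstm1 5′ end and -149 relative to that of Gstm6. In Gstm1 it had 12 of 12 bases in a footprint in replicate 1 and 11 in replicate 2, and in Gstm6 12 in replicate 1 and 7 in replicate 2. CTCF is the zinc-finger protein that anchors many chromatin loops. The core occurred in 2 of 15 shared peaks of the span, in 8.13% of all shared peaks and in 2.43% of RefSeq promoters. The 2 promoters were alike there, with 22 of 26 bases the same in the best local alignment. Gstm5 and Gstm4 both had the word TGCGCA, the half-site of nuclear respiratory factor 1, wholly inside footprints of both libraries, beginning at position -23 relative to the Gstm5 5′ end and -45 relative to that of Gstm4. This word was added to the search after the sequences had been seen, and it occurred in 4.57% of all shared peaks and 7.76% of promoters.

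The antioxidant response element, TGACNNNGC, was found 78 times in the span on both strands. Only 3 matches lay wholly in peaks of both libraries. The one in intron 7 of Gstm6 (TGACAGTGC, chr3:107939565-107939573) had all 9 bases in footprints of both libraries. The one in intron 7 of Gstm1 (TGACTCAGC, chr3:108013407-108013415), which is also an AP-1 site, TGACTCA, had 4 bases in a footprint in replicate 1 and 9 in replicate 2. The one in the Gstm5 promoter (TGACCACGC, chr3:107895812-107895820) had 3 bases in replicate 1 and none in replicate 2. None of the other 6 member promoters of RefSeq, Gstm1 and Gstm7 included, held the element in the 300 bases searched. Outside those bases, a match in Gstm7 (TGACAAAGC, chr3:107931735-107931743) lay across the downstream edge of its promoter peak. It had 5 bases in a footprint in replicate 1 and none in replicate 2. The element occurred in 12% of all shared peaks and 12.4% of promoters, so 3 in 15 shared peaks is a small count to set against them. No match of the HNF1, HNF4, ESRR, C/EBP, ETS, E-box or glucocorticoid and androgen receptor motifs lay in a shared peak of the span.

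The promoters differed from each other far more than the coding sequences did. Coding sequences were 65.4% to 84.9% the same over the 21 pairs of members, with a median of 77.6%, and were closest between Gstm2 and Gstm7 at 84.9% and between Gstm2 and Gstm3 at 84.7%. The 3 genes of these pairs had promoter peaks of 24.8 (Gstm7), 3.32 (Gstm2) and none (Gstm3) in replicate 1. Between the 300-base RefSeq promoters of the members, 89 to 169 bases matched in the alignment, with a median of 147, against 87 to 166 with a median of 142 between members and 38 promoters of the glutathione and NRF2 lists. The pair with the most matched bases was Gstm1 and Gstm6, with 169, whose heights in replicate 1 were 18.9 for Gstm1 and 2.38 for Gstm6. By the share of aligned columns, which can be raised by a shorter alignment, the closest were Gstm1 and Gstm3 at 56% of 159 columns.

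Most genes of glutathione metabolism outside the cluster also had a promoter peak. Of 34 such genes in 3 lists, 29 had one in both libraries, or 85.3%, against 60.7% of all protein-coding genes. Among the other glutathione transferases it was 15 of 19, with Hpgds in replicate 1 alone and Gstp3, Gstt4 and Mgst2 in neither. Of the genes of glutathione synthesis, reduction and turnover it was 11 of 12, with Slc7a11, the cystine carrier, in replicate 1 alone. All 3 genes of mercapturate formation had one in both. So did all 6 regulators of the NRF2 pathway and all 4 other NRF2 targets, which brings the count to 39 of 44 over the 5 lists.

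**Figure D5:**
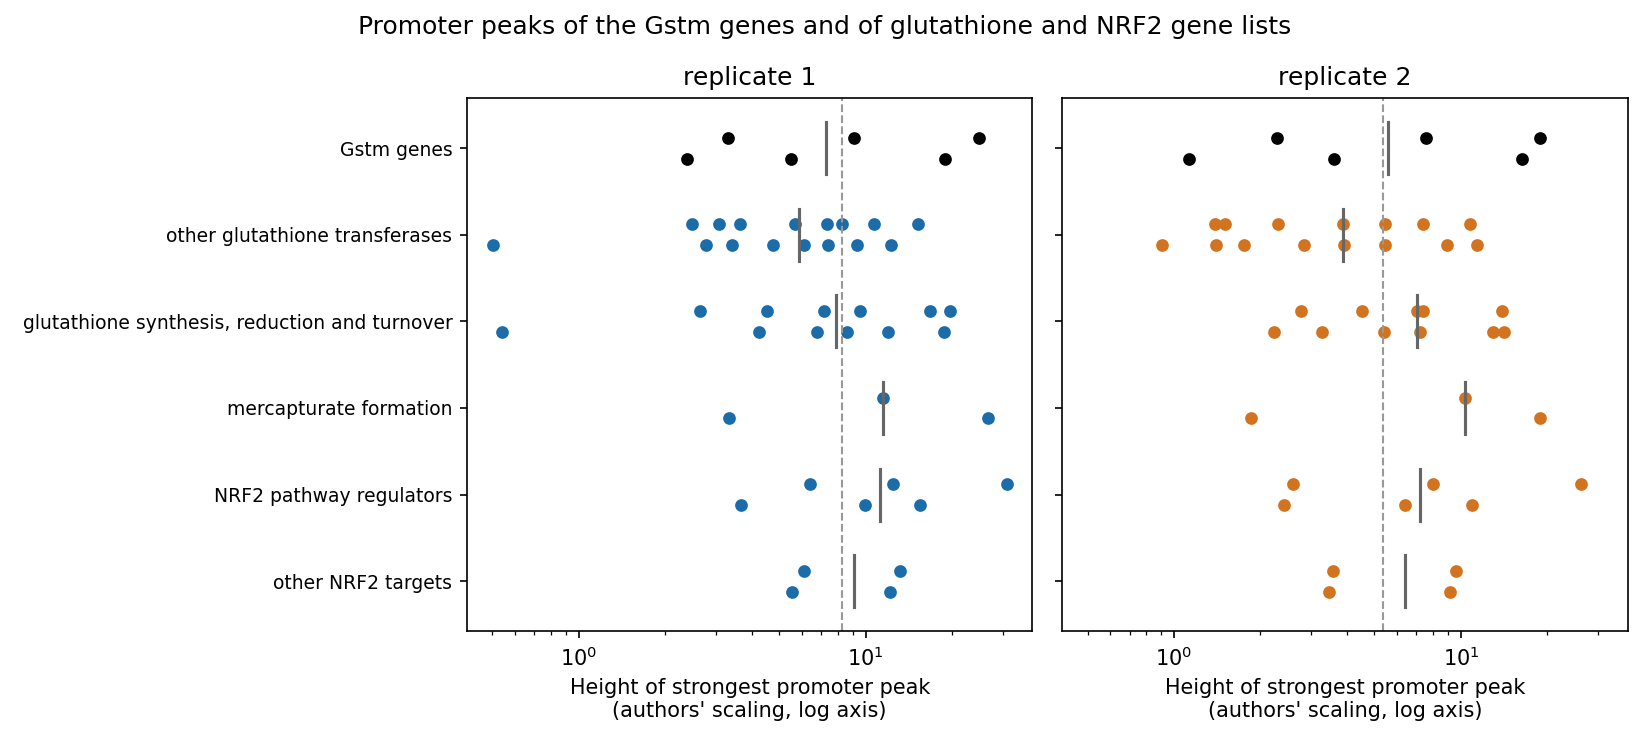
Height of the strongest promoter peak (horizontal axis, authors' scaling, log axis) of each gene that had one, for the Gstm genes and 5 glutathione and NRF2 lists, in replicate 1 and replicate 2; short bars are list medians and the dashed line is the median of all genes with a promoter peak in both libraries. The Gstm genes spread over most of the range of the other lists, from 2.38 to 24.8 in replicate 1 and from 1.13 to 18.9 in replicate 2.

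The median height was 7.29 in replicate 1 and 5.6 in replicate 2 for the 6 Gstm genes, against 5.88 in replicate 1 and 3.88 in replicate 2 for the other glutathione transferases that had a peak. Among all genes of the lists and the members with a peak, 47 in replicate 1 and 45 in replicate 2, Gstm7 had rank 3 in both, and Gstm1 rank 5 in replicate 1 and rank 4 in replicate 2. Gstm6 had rank 45 in replicate 1 and rank 44 in replicate 2. The list gene with the highest mean rank was Nfe2l2, which codes for NRF2, with a height of 31 in replicate 1 and 26.2 in replicate 2. Next came Acy1, an aminoacylase, with 26.6 in replicate 1 and 18.9 in replicate 2. Gss, glutathione synthetase, had 18.8 in replicate 1 and 13.9 in replicate 2. Ggct, which breaks down gamma-glutamyl peptides, had 19.7 in replicate 1 and 12.9 in replicate 2.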

How the data were processed

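DNase-seq of kidney was deposited as separate files for each of 2 libraries. Per the deposited descriptions, the authors derived them from a filtered alignment to mm10; which aligner and peak caller they used is not stated in the labels or file headers. Read totals were not used here, so depth is unknown and no interval or floor is given. Peak heights are the signal column deposited by the authors. The deposited false discovery rates, which are p-value-like, cover intervals below 0.05. The footprint files deposited by the authors hold intervals with the same p-value threshold, 0.01, in every row, so footprints have no score of their own. Every peak of the stricter set in the span held a base at 0.001 or less, and every peak of the wider set one at 0.05 or less.

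Heights were whole multiples (tolerance 0.02) of 1 step per library, and all 178270 and 103495 heights of the wider sets fitted. Genes came from GENCODE M21, other starts and 300-base promoters from RefSeq on GRCm38.p6. Promoter peaks, shared peaks (overlap of at least 1 base), matched footprints (at least 50% of the shorter), uniqueness of 36-base words, motif matches on both strands and alignments were computed with Python 3.11.15, NumPy 2.4.6, pandas 2.3.3 and Biopython 1.88, and figures with matplotlib 3.10.9. The counting of words was tested on simulated data. With 1 group there is no test between groups.

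The members and lists were chosen with earlier results of these data known. Named were all 7 members, every peak and annotated gene of the span, the 4 list genes whose strongest promoter peaks ranked highest on average, and list genes with no promoter peak in either library; those with a peak in 1 library alone were named after their values were seen. Reads of the C57BL/6J and CAST/EiJ alleles were not analysed here. Alternatives were start windows of 500 and 2500 bp, other peak sets, overlap rules, flanks and start annotations, and each replicate left out.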

Additional observations from a re-analysis of the deposited data

How the results depend on the processing

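The 6 members with a promoter peak in both libraries came to 5 or 6 under all 9 alternatives: with the stronger 50% of peaks Gstm6 was lost, and with each peak given to 1 gene, that of the nearest start, Gstm5 was lost to 4933431E20Rik. RefSeq starts, added after the data were seen, also gave 6. Shared peaks, 15 in the main count, came to 8 with the stronger 50% of peaks and 28 with flanks of 50 kb, and to between 15 and 26 with 1 replicate left out. Matched footprints, 33 in the main count, came to 10 when 80% of the longer footprint had to overlap, 20 inside peaks of both libraries, and between 64 and 94 with 1 replicate left out, where nothing is matched. The median log2 height ratio of -0.52 turned to 0.21 after division by the median of all shared peaks, by construction, since those medians differ by -0.73 on the log2 scale. No paired analysis was possible because the labels give 1 group only. With 2 libraries, no test and read totals not used, peaks near the calling threshold cannot be told from peaks missed for depth.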
